A study of Bos taurus with 14 samples.

Results

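Mammary tissue of dry Holstein cows kept in short days was compared with that of cows kept in long days, by biopsies taken 24 d before calving. The comparison rests on the 6 arrays titled with day -24, of 14 arrays in the series: 3 from short days (SD) and 3 from long days (LD), with every difference given as SD minus LD. SD cows had 8 h of light and 16 h of dark per day, and LD cows had 16 h of light and 8 h of dark, with lights coming on at the same hour in both. The labels state that milking had stopped some 60 d ahead of the date on which calving was predicted, and that photoperiods were assigned at random and kept up until calving. A second biopsy day, day -9, gave 4 arrays per photoperiod, which enter here for the spread between arrays and for values set beside those of day -24. RNA with an integrity number over 7.0 was used, 2 µg of total RNA per sample, on Affymetrix bovine arrays. All values are log2 signals of probe sets, short groups of probes against a transcript, so a difference of 1 is a change of 2-fold. The labels do not say whether the replicates of a group came from separate cows, nor whether the same cows gave both biopsies, so p-values measure the spread between these samples, which may be technical in part.

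In the dry period the gland clears cells of the previous lactation, renews them by division and then takes up milk synthesis near calving. Day length is read from melatonin and alters circulating prolactin, which is lower in short days. Prolactin acts on mammary cells through its receptor, the kinase JAK2 and the transcription factor STAT5. Inhibitors of the SOCS family and tyrosine phosphatases damp that signal. In dairy cows, short days in the dry period are known to be followed by a higher milk yield.

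The tissue label was checked against markers. The beta-casein gene CSN2 had 12.87, 12.71 and 12.57 on the SD arrays and 13.13, 12.73 and 12.78 on the LD arrays. Keratin 19 (KRT19) of luminal cells lay between 12.26 and 12.49 on the 6 arrays, and keratin 5 (KRT5) of myoepithelial cells between 10.62 and 11.29. The erythrocyte gene HBA stayed between 3.34 and 3.64. HBB, of the same list, varied more, with 5.92, 3.94 and 4.27 in SD and 4.53, 3.83 and 3.52 in LD. The erythrocyte list had 6 of 8 members above 0 and a median of 0.16. Biopsies hold many cell types, and fewer cells of a type cannot be told apart from less RNA per cell.

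Arrays of a group were as unlike each other as arrays of different groups. Pearson correlations between the 6 arrays, across probe sets, lay between 0.957 and 0.990, with a median of 0.977 within groups and 0.980 between them. The first principal component held 42.8% of the variance and set LD replicate 1 apart, at 66.16 against -32.71 to 9.73 for the other 5 arrays. The second held 23.9% and set SD replicate 3 apart, at -48.85. LD replicate 1 was the lowest of the 6 arrays for 29.0% of probe sets and the highest for 24.6%. SD replicate 3 was the lowest for 21.9% and the highest for 26.4%, where SD replicate 1 was the lowest for 8.86%. Among the probe sets lowest on SD replicate 3, 280 were lower by at least 0.7 on it and on LD replicate 4 of day -9 than on each of the other 12 arrays. They are called the low-signal probe sets below, and differences that rest on them are given also without SD replicate 3.

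No probe set passed an adjusted p of 0.05 in limma (0.0% of 24016), and after rounding the smallest adjusted p was 1.0. That adjusted p therefore applies to every gene named below for SD against LD at day -24. Without adjustment, 580 probe sets (2.42%) had a p under 0.05, 284 higher in SD (1.18%) and 296 lower (1.23%), where uniform p-values would give 1201. Groups did not overlap in 1361 probe sets (5.67%): in 635 (2.64%) all 3 SD arrays lay above all 3 LD arrays, and in 726 (3.02%) all 3 lay below. The median difference was 0.01, and 95.6% of differences were within 0.5 of 0, with a median standard error (SE) of 0.19. A difference of at least 1 was seen in 43 probe sets higher in SD (0.179%) and 59 lower in SD (0.246%).

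**Figure D1:**
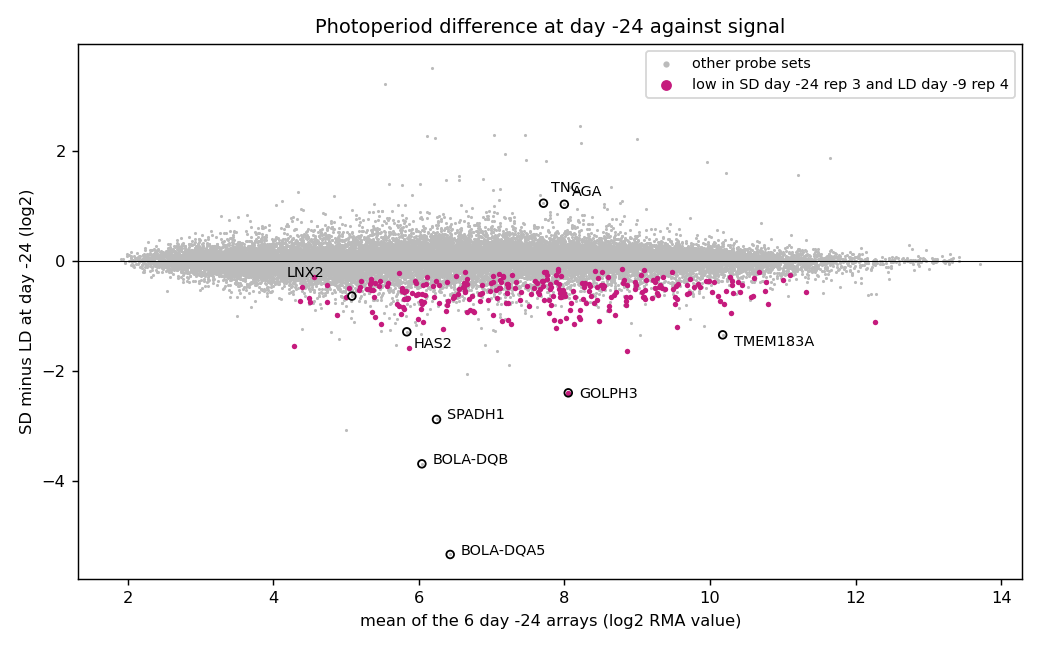
Difference SD minus LD at day -24 (log2, vertical) against the mean of the 6 arrays (log2 value, horizontal), 1 point per probe set, for 24016 probe sets. The 280 low-signal probe sets are coloured and all lie below 0, and 22 of them are among the 59 probe sets that were lower in SD by at least 1. Their choice by a low value on SD replicate 3 favours both.

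Among genes with a mean of at least 5, the smallest p for a higher value in SD belonged to AGA, the lysosomal aspartylglucosaminidase that cleaves sugar chains from asparagine. AGA had 8.69, 8.46 and 8.39 on the SD arrays and 7.20, 7.62 and 7.64 on the LD arrays. The groups did not overlap, and the difference was 1.03 (SE 0.18, 95% interval 0.64 to 1.41, limma adjusted p = 1.0). A second AGA probe set differed by 0.31 (-0.23 to 0.85), with overlapping groups. Leaving out any 1 of the 6 arrays gave 0.88 to 1.10 for the first probe set.

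The other 11 genes of smallest p that were higher in SD differed by 0.36 to 0.79. EAF2, a partner of transcription elongation factors, had 6.23, 6.10 and 5.95 in SD and 5.57, 5.33 and 5.55 in LD, a difference of 0.61 (SE 0.16). EXO5, a DNA repair exonuclease, had 7.54, 7.67 and 7.61 in SD and 7.09, 7.17 and 7.22 in LD, a difference of 0.44 (SE 0.12). Both genes had SD arrays that all lay above the LD arrays, and EXO5 had little spread within either group.

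Of the remaining 9, MGAT4A, a Golgi enzyme that branches N-glycans, differed by 0.78 and SPATA20 by 0.79. Without LD replicate 1 MGAT4A was at 0.50, and without SD replicate 3 SPATA20 was at 0.51. PIGF, an enzyme of GPI anchor synthesis, differed by 0.36. ACBD5, a peroxisomal membrane protein that binds long-chain acyl-CoA, differed by 0.69, the only one of the 12 whose groups overlapped. RPS6KL1 differed by 0.68, CCDC82 by 0.48 and the zinc finger genes ZSCAN16 and ZNF184 by 0.49 and 0.43.

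Probe sets of the same gene often did not share these differences. The second probe set of ZSCAN16 did, with 4.64, 4.63 and 4.81 in SD and 4.25, 4.31 and 4.23 in LD, a difference of 0.43 without overlap. For RPS6KL1 and MGAT4A the second probe set had the opposite sign (-0.22 and -0.15). For ACBD5 the others were at -0.71, with SD below LD on all arrays, and at 0.02.

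On the lower side the smallest p belonged to LNX2, a RING-finger ubiquitin ligase that binds the Notch regulator Numb. LNX2 had 4.87, 4.81 and 4.60 in SD and 5.42, 5.42 and 5.37 in LD, a difference of -0.64 (SE 0.15, limma adjusted p = 1.0). Its second probe set had 9.74, 9.65 and 8.94 in SD and 10.13, 10.06 and 10.06 in LD, a difference of -0.64 as well, or of -0.39 without SD replicate 3. Neither probe set had overlapping groups.

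PEG3, a zinc finger gene expressed from the paternal allele, was lower in SD on 5 of 5 probe sets. The one of smallest p had 4.96, 5.01 and 4.88 in SD and 5.27, 5.56 and 5.82 in LD, a difference of -0.60 (SE 0.15). Another had 7.22, 7.46 and 6.25 in SD and 7.60, 8.05 and 8.14 in LD, a difference of -0.95. The groups did not overlap on these and on 1 more probe set (-0.23), and did overlap on the other two (-0.10 and -0.31). Without SD replicate 3 the first of them was at -0.57 and the second at -0.59.

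HAS2, which makes the matrix polymer hyaluronan, was next to TMEM183A in the size of its difference among these genes. It had 5.62, 5.44 and 4.51 in SD and 6.21, 6.24 and 7.00 in LD, a difference of -1.29 (SE 0.31, 95% interval -1.95 to -0.63). Its other probe sets differed by 0.11 and -0.13, with overlapping groups. TMEM183A, a membrane protein gene, had 9.22, 9.53 and 9.75 in SD and 11.02, 10.81 and 10.72 in LD, a difference of -1.35 (SE 0.40). Its 3 other probe sets were at 0.07, 0.00 and -0.11, so both genes were far apart on 1 probe set only.

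The other 8 of the 12 lower genes differed by -0.39 to -1.03. PRRG4, a membrane protein with a vitamin K-dependent domain, differed by -1.03 and WASHC2A, a subunit of the endosomal WASH complex, by -0.91. The zinc finger genes ZNF24 and MYNN differed by -0.84 and -0.51, and the homeobox gene ADNP2 by -0.51. ABCC1, an export pump, differed by -0.64, PTPN2 by -0.41 and MARK2, a kinase of cell polarity, by -0.39. Without SD replicate 3, MYNN was at -0.31 and MARK2 at -0.24. Of these 8, WASHC2A alone had overlapping groups. Other probe sets of these genes were mostly nearer to 0, with overlapping groups. They were at -0.08 for ADNP2, 0.10 and -0.19 for WASHC2A, -0.05 and -0.11 for MARK2 and -0.37 for ABCC1. Those of PTPN2 are given below.

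**Figure D2:**
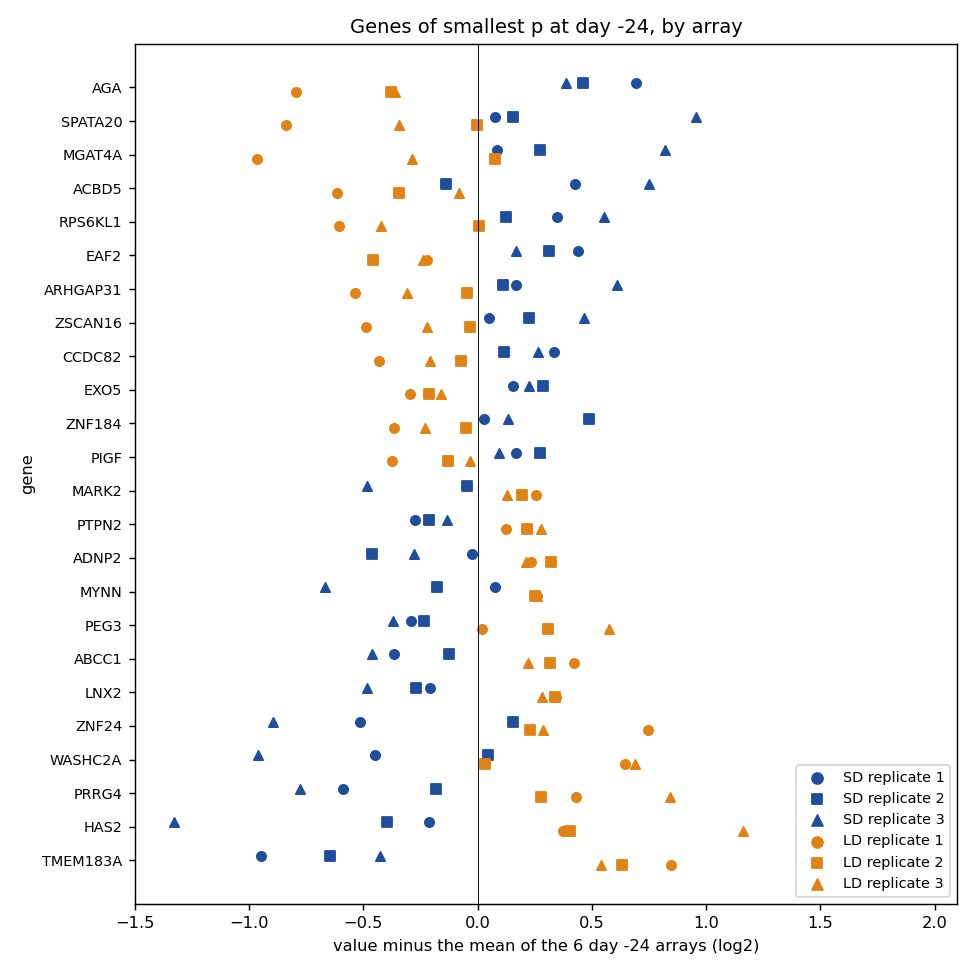
Value of the 24 genes of smallest p (12 higher and 12 lower in SD) on each day -24 array, as the difference from the mean of the 6 arrays (log2, horizontal). Colours stand for the photoperiod and shapes for the replicate, and 22 of the 24 genes have SD arrays all on one side of the LD arrays, as the choice of genes favours.

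Among probe sets with groups that did not overlap, the largest differences included AGA, SPATA20 and TMEM183A, described above, and genes with a wider spread. SPADH1, a spermadhesin, had 4.85, 4.52 and 5.04 in SD and 6.39, 6.62 and 10.04 in LD, a difference of -2.88 (95% interval -5.82 to 0.05). LD replicate 3 stood far above the other LD arrays, and without it the difference was -1.70. CRTAC1, a secreted matrix protein, had 5.94, 5.91 and 6.61 in SD and 8.08, 6.70 and 8.25 in LD, a difference of -1.52.

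GOLPH3, which holds glycosyltransferases in the Golgi, had 7.62, 7.39 and 5.55 in SD and 9.32, 9.55 and 8.89 in LD, a difference of -2.40 (SE 0.85). It is a low-signal probe set, and without SD replicate 3 the difference was -1.75. The second GOLPH3 probe set differed by -0.09. RAB6A, a GTPase of Golgi traffic, had 5.60, 4.92 and 4.28 in SD and 6.06, 7.02 and 6.29 in LD, a difference of -1.52, against -0.12 on its second probe set. SGK1, a kinase induced by glucocorticoids, differed by -1.64, or by -0.90 without SD replicate 3, and its probe set is a low-signal one too.

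Of the genes with the largest higher values, RAMP1, a co-receptor for the peptide CGRP, had 8.42, 7.32 and 7.40 in SD and 6.64, 7.20 and 6.68 in LD. The difference was 0.87 (95% interval 0.01 to 1.73), with 0.58 on a second probe set whose groups overlapped, and the first was at 0.52 without SD replicate 1. GNLY, the granulysin of cytotoxic lymphocytes, had 7.00, 7.06 and 7.59 in SD and 6.95, 5.89 and 5.93 in LD, a difference of 0.96 (-0.25 to 2.16). The T and NK cell list, to which GNLY belongs, had 10 of 18 members above 0 and a median of 0.06. MCPH1, a regulator of chromosome condensation, differed by 0.91, or by 0.33 without LD replicate 1, and the spindle gene CKAP2 by 0.82, against 0.08 and 0.25 on its other probe sets, whose groups overlapped.

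Lists of genes by function were described by counts and medians, beside the same over all probe sets. The 842 measured members of 42 lists held 16 genes with a limma p under 0.05 before adjustment (1.90%, against 2.42% of all probe sets), 4 higher and 12 lower in SD. Groups did not overlap in 10 members higher in SD (1.19%, against 2.64%) and 25 lower (2.97%, against 3.02%). The listed genes as a whole thus held no larger share than the array. Medians of the 30 function lists ran from -0.13 to 0.54.

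Prolactin and growth hormone signalling was the list with the largest number of members lower in SD without overlap, 4 of 14 (28.6%, against 3.02%). The list was chosen with earlier results of these arrays known, and its median was -0.05, with 4 members above 0. Among the receptors, PRLR, the prolactin receptor, had 9.91, 9.78 and 8.59 in SD and 10.11, 10.20 and 9.71 in LD. The groups overlapped, and the difference of -0.58 (SE 0.41) was -0.16 without SD replicate 3, the array on which PRLR is a low-signal probe set. STAT5B, a transcription factor of the pathway, had 7.93, 5.82 and 6.65 in SD and 6.34, 6.98 and 6.51 in LD, a difference of 0.19 (SE 0.53).

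The 4 members without overlap all act downstream of the receptors. SOCS2, a feedback inhibitor induced through STAT5, had 9.21, 8.89 and 9.26 in SD and 9.73, 9.58 and 9.29 in LD, a difference of -0.41 (SE 0.15, 95% interval -0.74 to -0.09). PTPN2, a phosphatase that acts on JAK kinases and STAT factors, had 9.71, 9.76 and 9.84 in SD and 10.10, 10.20 and 10.25 in LD, a difference of -0.41 (SE 0.12). The PTPN2 arrays were tightly grouped, while SD replicate 3 and LD replicate 3 of SOCS2 lay next to each other. PTPN2 has 2 other probe sets, at -0.35 and 0.23 with overlapping groups.

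The related phosphatase PTPN1 differed by -0.23, or by -0.08 without SD replicate 3. The adaptor SHC1, named after its values were seen, differed by -0.10 (95% interval -0.31 to 0.10). The other feedback inhibitors did not share the difference of SOCS2: SOCS3, a dim probe set, was at 0.01 and CISH, named after its values were seen, at -0.01. A second SOCS3 probe set, dimmer still, was at 0.20, with all SD arrays above all LD arrays. In the IGF axis, with 5 of 13 members above 0 and a median of -0.02, IGF1 differed by -0.68, or by -0.11 without SD replicate 3, where it is a low-signal probe set. Its 3 other probe sets were at -0.02 to -0.19. The IGF carrier subunit IGFALS differed by -0.25, with all SD arrays between 4.86 and 4.99 and all LD arrays between 5.03 and 5.27. A second IGFALS probe set was at -0.02, with overlapping groups.

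Mitosis genes were above all LD arrays on 2 SD arrays, in their mean, and below them on the other. Of 81 measured genes of replication, mitosis and cell cycle control, 68 were above 0 (against 52.7% of all probe sets), and 1 was without overlap in each direction. Mitosis and spindle genes had 26 of 29 above 0 and a median of 0.54, and DNA replication genes 30 of 33 and 0.20. The mean over the mitosis genes, relative to the 6 arrays, was 0.61 and 0.53 on SD replicates 1 and 3 and -0.48 on SD replicate 2, against -0.33, -0.27 and -0.07 on the LD arrays. SD replicate 2 thus lay below all LD arrays.

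Counted gene by gene, most mitosis genes had the order of their own mean. These counts describe the same 6 arrays again and are no separate support. In 25 of 29 (86.2%) SD replicates 1 and 3 were both above all LD arrays, against 10.0% of all probe sets, and SD replicate 2 was the lowest array in 16 (55.2%, against 15.4%). AURKA, a kinase of the spindle poles, had 7.61, 6.60 and 7.88 in SD and 6.13, 6.63 and 6.70 in LD, a difference of 0.88 (SE 0.32, limma adjusted p = 1.0). This AURKA probe set was at 0.62 without SD replicate 3 and at 1.26 without SD replicate 2. A second AURKA probe set differed by 0.29, with overlapping groups. The condensin genes NCAPH and NCAPG differed by 0.51 and 0.57, and CCNB2, a cyclin of entry into mitosis, by 0.78, all with overlap. Without SD replicate 2 these 3 were at 0.83, 0.96 and 1.23, and NCAPG was at 0.34 without SD replicate 1 and at 0.36 without LD replicate 2. The mitosis median was 0.90 without SD replicate 2, 0.34 without SD replicate 1 and 0.37 without SD replicate 3.

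In DNA replication the order of the arrays was another. LD replicate 1 was the lowest in 22 of 33 genes (66.7%, against 29.0%), and without it the median was 0.02. GINS3, a subunit of the replicative helicase complex, had 8.48, 7.72 and 8.25 in SD and 7.43, 8.05 and 7.71 in LD, a difference of 0.42 (SE 0.24), or of 0.26 without SD replicate 1, 0.64 without SD replicate 2 and 0.27 without LD replicate 1. ORC6, of the origin recognition complex, differed by 0.27, against -0.05 on its second probe set. The DNA ligase LIG1 differed by 0.41. LIG1 was at 0.07 without SD replicate 3 and at 0.25 without LD replicate 1, and its other probe sets were at -0.22 and 0.32. The list of cyclins, kinases and E2F control had 12 of 19 members above 0 and a median of 0.15, with overlapping means of 0.33, -0.19 and -0.0047 in SD and -0.20, -0.02 and 0.08 in LD. In it 1 member lay without overlap on each side (5.26% each, against 2.64% higher and 3.02% lower), and both are switches of mitotic entry. CDC25C, the phosphatase that activates CDK1, had 5.13, 4.63 and 4.85 in SD and 4.38, 4.29 and 4.55 in LD, a difference of 0.47 at low signal. WEE1, the kinase that inhibits CDK1, had 6.75, 6.15 and 5.98 in SD and 7.02, 7.61 and 7.40 in LD, a difference of -1.05 (SE 0.44). Markers of cell types differed on the same arrays: the endothelial list had 13 of 16 members above 0 and a median of 0.17, with means of 0.04, -0.16 and 0.35 on the SD arrays and -0.27, 0.13 and -0.09 on the LD arrays. Neutrophil markers, with 8 of 15 members above 0, had means of 0.38, -0.57 and 0.14 in SD and 0.13, -0.19 and 0.11 in LD. Their part in the cell cycle values was not tested.

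**Figure D3:**
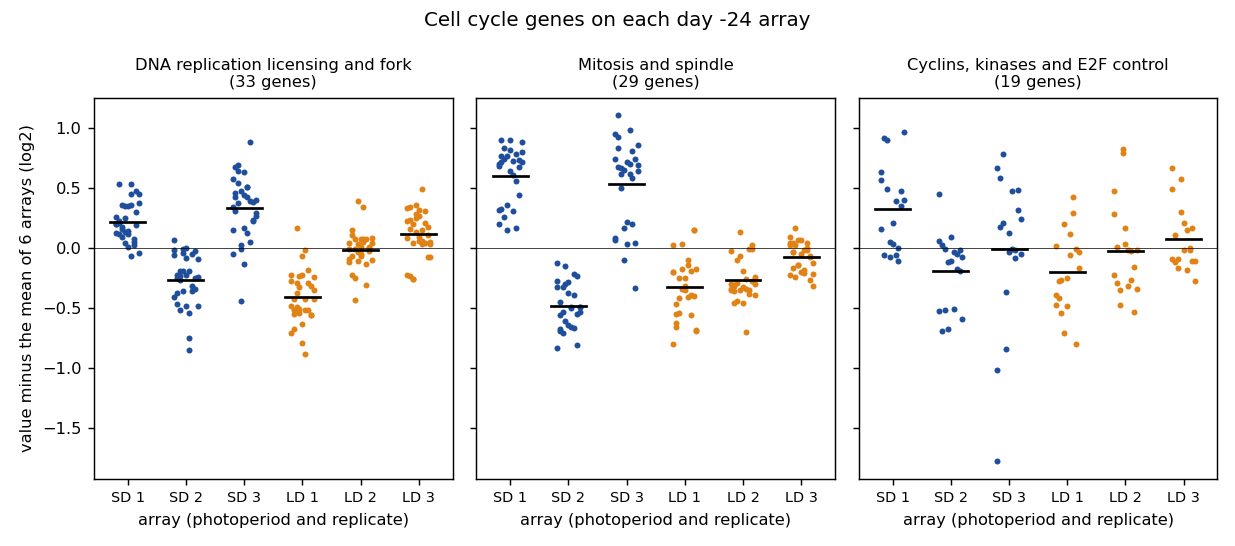
Cell cycle genes of 3 lists on each day -24 array, as the difference from the mean of the 6 arrays (log2, vertical), 1 point per gene, with a bar at the mean. In mitosis genes SD replicates 1 and 3 average 0.61 and 0.53 and SD replicate 2 averages -0.48, below the 3 LD arrays.

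Milk protein genes differed little between photoperiods in their median, and by more on single probe sets. All 9 measured caseins and whey proteins were below 0, with a median of -0.08, and the median was 0.02 without LD replicate 1. CSN1S2, the alpha-S2-casein, had 12.53, 11.52 and 11.67 in SD and 12.81, 12.31 and 12.44 in LD, a difference of -0.61 (SE 0.28) with overlap, or of -0.93 without SD replicate 1. CSN2 differed by -0.16 (95% interval -0.48 to 0.15) on the probe set chosen for it, or by -0.04 without LD replicate 1, and by -0.34 and -0.60 on its other two. On the last of these the groups did not overlap, with 11.61, 12.23 and 12.09 in SD and 12.85, 12.64 and 12.26 in LD. LALBA, the lactose synthase subunit alpha-lactalbumin, had 12.98, 11.81 and 12.22 in SD and 13.17, 12.30 and 11.71 in LD, a spread within groups far wider than the difference of -0.06.

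Genes that fold and export proteins in the endoplasmic reticulum were lower in SD by a small amount, with 33 of 36 below 0, a median of -0.13 and a range of -0.08 to -0.17 when 1 array was left out. The calcium-binding chaperone CALR had 9.67, 9.09 and 9.05 in SD and 9.84, 10.49 and 9.91 in LD. Its difference of -0.81 (SE 0.32) was the only one in the list without overlap, 1 of 36 (2.78%, against 3.02% of all probe sets). The chaperone HYOU1 differed by -0.45, or by -0.70 without LD replicate 1, and its 4 other probe sets were below 0 as well. SRP9, of the particle that guides secreted proteins to the reticulum, differed by -0.28, or by -0.13 without SD replicate 3. Mean values over the list were 0.07, -0.20 and -0.09 on the SD arrays and 0.04, 0.14 and 0.04 on the LD arrays, so SD replicate 1 lay within the range of LD.

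Supply and energy lists gave medians nearer to 0. Milk fat genes had a median of -0.07 (8 of 27 above 0), and the fatty acid transporter CD36 differed by -0.39, or by -0.21 without SD replicate 3, -0.22 without LD replicate 1 and -0.68 without SD replicate 1. In lactose synthesis and glucose supply the median was 0.03, with the hexokinase HK1 at 0.35, or 0.11 without LD replicate 1, and the sugar mutase PGM3 at -0.39, or -0.23 without SD replicate 3. Oxidative phosphorylation had 49 of 58 members above 0 and a median of 0.09, with SD replicate 2 and LD replicate 1 both low (-0.16 and -0.18). SLC7A1, a carrier of cationic amino acids, had 5.33, 5.03 and 5.17 in SD and 5.58, 5.68 and 5.45 in LD, a difference of -0.39 without overlap, while 8 of 20 genes of its list were above 0.

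**Figure D4:**
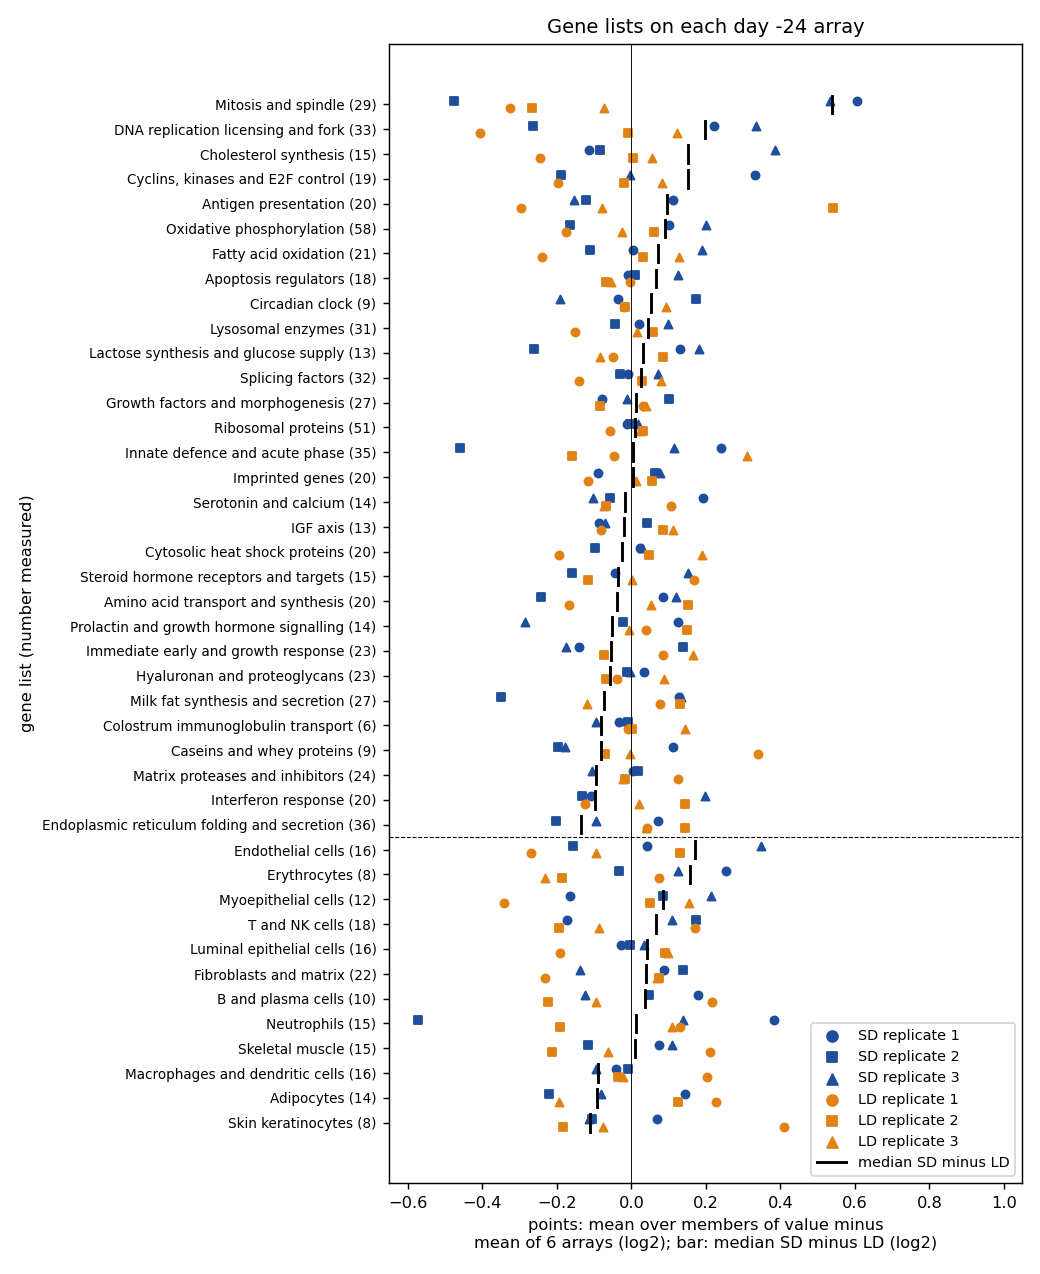
Mean over the members of each gene list on each day -24 array, as the difference from the mean of the 6 arrays (log2, horizontal), with a bar at the list's median of SD minus LD. Function lists are above the dashed line and cell type markers below it. The arrays of both groups overlap in every list except 1, colostrum immunoglobulin transport, with 6 genes and a median of -0.08.

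The matrix protease list had 2 of 24 members lower in SD without overlap (8.33%, against 3.02%), MMP14 and PLAUR, and 10 members above 0. MMP14, a membrane-bound matrix protease, had 3.80, 3.84 and 3.66 in SD and 4.27, 4.42 and 3.98 in LD, a difference of -0.45 (SE 0.13) at low signal, and its 2 other probe sets were at -0.20 and -0.11 with overlap. PLAUR, the urokinase receptor, had 6.46, 5.83 and 6.56 in SD and 6.60, 6.65 and 6.72 in LD, a difference of -0.37, or of -0.14 without SD replicate 2. TIMP4, a protease inhibitor, differed by -0.53, or by -0.33 without LD replicate 1. Hyaluronan and proteoglycan genes had 10 of 23 above 0 and a median of -0.06. The HAS2 probe set counted in that list is the one at -0.13, whose groups overlapped.

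Among regulators of cell death, BAX, which opens the mitochondrial outer membrane, had 7.72, 7.20 and 7.56 in SD and 6.95, 7.39 and 6.71 in LD. BAX differed by 0.48 with overlap, and BCL2L1, its antagonist, by 0.32 without overlap. BCL2L1 was at 0.21 without LD replicate 1. LIPA, the lysosomal acid lipase, had 10.98, 10.74 and 10.84 in SD and 10.63, 10.47 and 10.42 in LD, a difference of 0.35 (SE 0.15). The lysosomal list as a whole had 19 of 31 members above 0 and a median of 0.04.

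Of growth factors, BMP2 differed by 0.67 at low signal, the cytokine gene TGFB1 by -0.37 and the Notch target HEY1 by -0.35, each without overlap. HEY1 was at -0.19 without LD replicate 3. Their list had 14 of 27 members above 0. Without overlap, 1 member was higher in SD (3.7%, against 2.64% of all probe sets) and 2 were lower (7.41%, against 3.02%). In the circadian clock, PER2, a repressor of the clock, had 7.98, 8.72 and 8.17 in SD and 8.27, 7.86 and 7.87 in LD, a difference of 0.29 (SE 0.23), or of 0.08 without SD replicate 2. BHLHE40, another repressor, differed by -0.83 with overlap, or by -0.31 without SD replicate 3, where it read 7.40. A second BHLHE40 probe set differed by -0.51 without overlap, or by -0.26 without SD replicate 3. The hour of the biopsies is not given in the labels used here.

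Innate defence genes had 18 of 35 members above 0 and a median of 0.01. The chemokine CCL2 had 9.78, 9.81 and 9.08 in SD and 9.86, 10.26 and 10.28 in LD, a difference of -0.58 (SE 0.28). TNF, at low signal, differed by -0.32, and the defensin DEFB4A by -1.03 (95% interval -2.63 to 0.57), against 0.14 on a second probe set. Without SD replicate 3 CCL2 was at -0.34 and TNF at -0.21, and without SD replicate 2 DEFB4A was at -0.64. The list held 3 of 35 members without overlap that were lower in SD (8.57%, against 3.02%), and none that were higher.

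The widest differences on the array were in the class II major histocompatibility genes, which vary in sequence and in gene number between cattle. BOLA-DQA5 had 5.50, 2.56 and 3.23 in SD and 5.02, 11.19 and 11.10 in LD, a difference of -5.34 (95% interval -10.37 to -0.31). BOLA-DQB had 4.87, 4.04 and 3.68 in SD and 4.09, 9.88 and 9.69 in LD, a difference of -3.69, or of -5.59 without LD replicate 1. Both were at high signal on LD replicates 2 and 3 and on no other day -24 array. BOLA-DQA1 went the other way and was higher in SD, at 2.21. The antigen presentation list, in which BOLA-DQA5 was lowest and BOLA-DQA1 highest, had 16 of 20 members above 0 and a median of 0.10. Other genes of the family, named after their values were seen, had 1 array each far from the rest: BOLA-DQA2 had 7.77 on LD replicate 3 against 11.53 to 12.32 on the other 5 arrays, and the class I gene BOLA had 7.12 on LD replicate 1 against 12.35 to 12.79. BOLA-DRA, the alpha chain of DR molecules, which varies little between animals, lay between 11.86 and 12.17 on all 6 arrays.

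Signs of RNA quality were compared because signal near the start of a transcript falls with degradation. Over 6 control transcripts, the signal at the 3-prime end minus that at the 5-prime end averaged 0.95, 1.09 and 1.18 in SD and 0.96, 0.78 and 1.02 in LD. The difference of 0.15 had a two-sided exact permutation p = 0.3, and the smallest p that 2 groups of 3 can give is 0.1. For EF1A all SD arrays lay above all LD arrays (0.19, exact permutation p = 0.1, adjusted over the 6 transcripts 0.6). The part of RNA quality in the differences above was not tested.

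Values at day -9 come from other arrays and can be set beside those of day -24. Of the 24 genes of smallest p, 11 had the same sign at day -9 and 13 the opposite sign. AGA was at 0.66 (SE 0.15) and ZNF184 at 0.37 (SE 0.12) at day -9, both higher in SD on both days. EXO5 was at -0.37, PTPN2 at 0.23 and MYNN at 0.47 at day -9, each opposite to day -24. These 5 had a limma p under 0.05 before adjustment at day -9, where 2.77% of all probe sets did and the smallest adjusted p was 0.984. One estimate of the spread serves both days, so a gene with little spread tends to a small p on both.

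The difference between the days was tested as the photoperiod by day interaction, day -24 minus day -9. No probe set passed an adjusted p of 0.05 in limma (0.0%; smallest adjusted p = 0.9), and 997 had a p under 0.05 before adjustment (4.15%). Since the 24 genes were chosen at day -24, their interaction values are a description: EXO5 had 0.82 (SE 0.16), EAF2 0.89, MYNN -0.98, PTPN2 -0.65 and LNX2 -0.73. AGA had 0.36 (SE 0.23). The mitosis list, with a median of 0.54 at day -24, had one of -0.59 at day -9, with 3 of 29 members above 0, and the endoplasmic reticulum list had -0.13 and -0.08. Oxidative phosphorylation had 0.09 and -0.12, with 2 of 58 members above 0 at day -9.

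**Figure D5:**
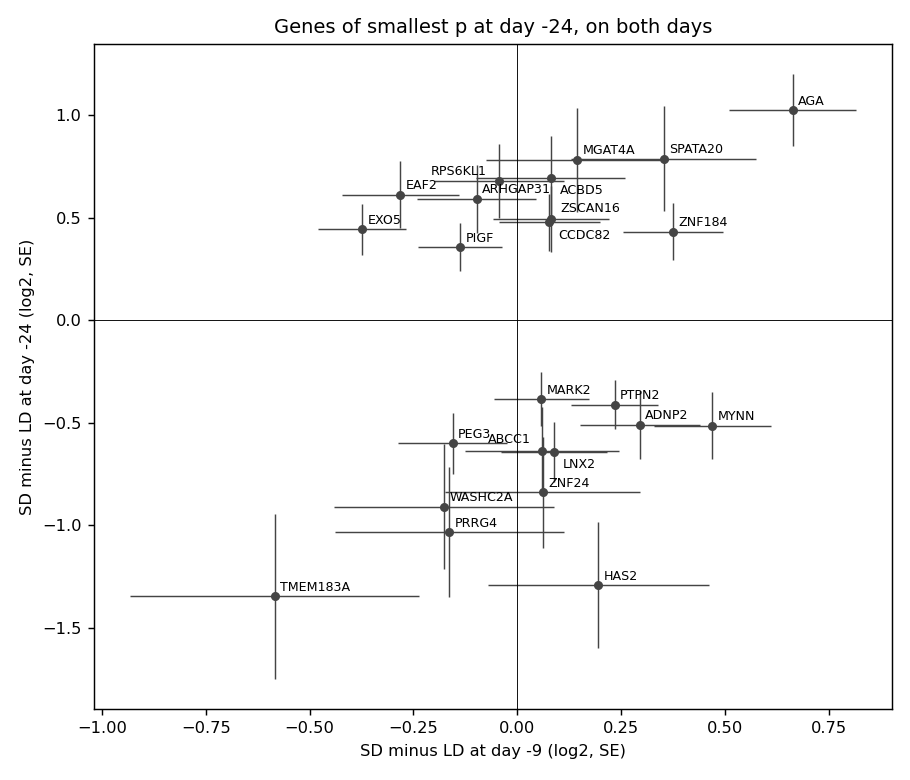
SD minus LD at day -24 (log2, vertical) against SD minus LD at day -9 (log2, horizontal) for the 24 genes of smallest p at day -24, with SE bars. AGA and ZNF184 lie to the upper right with 0.66 and 0.37 at day -9, and 13 of the 24 genes lie in the quadrants of opposite sign.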

How the data were processed

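Per the submitters' processing notes, the authors processed the arrays by RMA, and they deposited log2 values, 1 per probe set and array, which were used unchanged. The version of that software is not given in the sources used here. Of 24128 probe sets, 112 Affymetrix controls were left out. The array annotation names 1 gene for 13292 of the rest, several for 86 and none for 10638. Symbols were updated through RefSeq, 13263 by Entrez number and 2 by accession, and 27 were kept. In R 4.3.3, limma 3.58.1 fitted 4 group means over 14 arrays (lmFit, eBayes, two-sided), with Benjamini-Hochberg adjustment over 24016 probe sets. Arrays have no read depth, and their number limits the precision.

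Named genes were the 12 of smallest p in each direction (1 symbol, mean of at least 5), the 6 of largest difference in each direction without overlap, up to 3 per list and 7 fixed genes. Lists, 42 with 842 measured genes, used the probe set of highest mean. "At low signal" means a mean under 5. Members, lists and rules were chosen with earlier results of these data known. Tested on simulated data of this comparison with 24016 probe sets, the fit recovered 58% of 100 changes of 2-fold and 88% of 100 changes of 4-fold, with 9 false calls. The simulated noise was independent between probe sets, without the patterns that set whole arrays apart here. These rates may therefore not hold for the real arrays. The alternatives were array weights, an intensity trend, a signal filter, other scalings, other probe sets, a replicate block and arrays left out. Same-numbered SD and LD replicates did not deviate together (correlations 0.21, -0.13 and 0.25), and nothing in the labels pairs them.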

Additional observations from a re-analysis of the deposited data

Results flagged for a closer look

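At day -9, 1 array of 4 stood apart from the others of its group in 14 of 80 groups examined (40 genes, 2 photoperiods), by the ratio of its gap to the whole range, and chance gives about 1 in 20 groups. TMEM183A was at 10.61 on 1 SD array against 9.27 to 9.40 on the others, and at 9.14 on 1 LD array against 10.55 to 10.66. SGK1 was at 8.96 on 1 SD array against 9.49 to 9.60, and at 6.70 on 1 LD array against 9.61 to 9.90. IGF1 was at 5.30 on 1 SD array against 5.95 to 6.05, and at 4.33 on 1 LD array against 6.23 to 6.53. For SGK1 and IGF1 the low LD array is LD replicate 4, which follows from their being low-signal probe sets. The 80 groups come from the same 8 arrays and are not independent, so the count of 14 cannot be judged against 1 in 20.

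Single SD arrays were low in SPATA20 (5.90 against 6.38 to 6.46), PTPN2 (9.83 against 10.13 to 10.18) and ZNF24 (8.12 against 8.68 to 8.76). They were high in MYNN (6.92 against 6.68 to 6.70), ADNP2 (6.64 against 6.33 to 6.36), ABCC1 (5.48 against 4.99 to 5.04) and CRTAC1 (8.95 against 6.45 to 6.79). In PIGF 1 LD array was high, at 7.81 against 7.71 to 7.72. Day -24 groups have 3 arrays and were not examined in this way.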

How the results depend on the processing

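The count of probe sets past an adjusted p of 0.05 was 0 in all 14 settings of limma tried. The 580 probe sets with a p under 0.05 before adjustment became 1031 with array quality weights, 384 without SD replicate 3 and LD day -9 replicate 4, and between 290 (without SD replicate 3) and 1079 (without SD replicate 2) when 1 day -24 replicate was left out, among them 1021 without SD replicate 1 and 958 without LD replicate 1. The 1361 probe sets without overlap became 2645 without SD replicate 3 and LD day -9 replicate 4, and between 2645 and 4628 with 1 replicate left out, since fewer arrays overlap less often. Centring arrays on their medians gave 251 higher and 332 lower at p under 0.05. With a replicate block the count was 652, and no adjusted call was gained. The replicate numbers do not pair the samples.

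Of 1706 values of 123 genes, 1696 kept their sign, on the same side of the threshold. Of the 161 named probe sets, those taken from lists entered here only at a limma p under 0.2 before adjustment. That limit favours kept signs. Outside it, AGPAT1, at 0.27, was at -0.05 without LD replicate 1, and NFIL3, at 0.17, was at -0.07. Among the 123 genes, the 10 other values belonged to STAT5B, SOCS3 and LALBA. With 1 replicate left out, STAT5B ran between -0.38 (without SD replicate 1) and 0.68, SOCS3 between -0.075 (without LD replicate 2) and 0.15, and LALBA between -0.40 and 0.33 (without LD replicate 1). SOCS3 was at -0.0054 with centred arrays. LALBA was at 0.43 with array weights and at 0.0035 without SD replicate 3 and LD day -9 replicate 4. List medians kept within the spread of their arrays in 655 of 672 values. The cholesterol synthesis median of 0.15 was -0.08 without SD replicate 3. With 3 arrays per group, a difference of 2-fold was recovered in 58% of cases simulated with independent noise. The rate on the real arrays is not known, and smaller differences may pass unseen. The causes of these shifts were not tested.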
